A study of Mus musculus with 36 samples.

Results

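Akr1cl, Dock5, Nipal1 and Npbwr1 are 4 of the 21699 genes counted in mouse foetal gonads, and they were chosen because their counts were lower in mutants than in controls in XX and in XY gonads at both embryonic stages examined. They were picked by symbol from the count tables. All 4 passed the filter on low counts, after which 14217 genes remained for E11.5 and 14348 for E12.5. The controls are described by the labels as WT. The mutants, labelled MiRC1 Mutant and here called KO, carried the transgene Tg(CAG-cre)1Nagy and were homozygous for a deletion (del/del) of the miR-17~92 cluster. Cre driven by the broadly active CAG promoter had removed the floxed cluster, so the deletion was not limited to the gonad. For XX control, XX KO, XY control and XY KO embryos, 3 libraries were sequenced at E11.5 and 3 at E12.5 (days of embryonic development), 24 in all, and each library held pooled gonads. At E11.5 the RNA came from the gonad with its mesonephros, the adjoining embryonic kidney, and at E12.5 from the gonad alone, with a different library kit. The 2 stages were therefore not tested against each other.

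The 4 genes belong to unrelated families. Akr1cl encodes a C-like member of family 1 of the aldo-keto reductases, enzymes that reduce carbonyl groups on steroids, prostaglandins and other small molecules with NADPH. Dock5 encodes an exchange factor that loads the small GTPase RAC with GTP and so acts on the actin cytoskeleton, and DOCK proteins of its class work together with ELMO scaffold proteins. Nipal1 encodes a membrane protein of the NIPA family of magnesium transporters. Npbwr1 encodes the G protein-coupled receptor of neuropeptides B and W, a relative of the opioid and somatostatin receptors that is best known from the brain. In the XY gonad, the stages sampled span the time at which supporting cells take the Sertoli fate under Sry and Sox9, whereas supporting cells of the XX gonad become pre-granulosa cells. MicroRNAs bind messenger RNAs mainly through pairing of the seed, bases 2 to 8, with the 3′ UTR, and they generally lower the level of the messengers they bind.

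The deleted cluster holds 6 hairpins in 836 bp (GRCm38.p6 chr14:115043671-115044506, plus strand). Their mature microRNAs are shown because they are what the mutants lack, from RefSeq, 5′ to 3′, with the seed in capitals. They share 4 seeds: that of miR-17-5p and miR-20a-5p, that of miR-18a-5p, that of miR-19a-3p and miR-19b-3p, and that of miR-92a-3p.
miR-17-5p: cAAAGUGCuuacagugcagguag
miR-20a-5p: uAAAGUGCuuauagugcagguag
miR-18a-5p: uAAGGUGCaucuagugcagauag
miR-19a-3p: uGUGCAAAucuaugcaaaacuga
miR-19b-3p: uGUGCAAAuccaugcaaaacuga
miR-92a-3p: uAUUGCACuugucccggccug

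Dock5 lies on the same chromosome as the cluster, 47.11 Mb away, at chr14:67752135-67933442 on the minus strand (GRCm38, GENCODE annotation, as for the other genes). Npbwr1 is a gene of 3692 bp at chr1:5913707-5917398, minus strand, and Akr1cl spans 20071 bp at chr1:65012689-65032759, minus strand. Nipal1 lies at chr5:72647795-72671078 on the plus strand. Exons of Akr1cl share 494 bp with Gm8550, a processed pseudogene on the opposite strand that the count tables do not list, and Mir6539 lies in an intron of Dock5 on the same strand. The strand setting of the counting is not given in the sources used here, so reads from Gm8550 cannot be told apart from those of Akr1cl over these bases.

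Letters that pair with the seeds were searched in the annotated 3′ UTR of each gene as a description of the sequence, counting a match to bases 2 to 8 (7mer-m8), the same followed by A (8mer), and a match to bases 2 to 7 followed by A (7mer-A1). Npbwr1 (3′ UTR of 2597 bases), Nipal1 (2862 bases) and Dock5 (4283 bases) held matches, and the 578 bases of Akr1cl held none. No match to the miR-17 seed was found in any of the 4 genes. Each match is shown in capitals with its flanking bases, named by gene, microRNA family and position from the first base of the 3′ UTR.
Npbwr1, miR-18, 8mer at 232: gggccaggGCACCTTActatttt
Npbwr1, miR-19, 8mer at 841: gagctgctTTTGCACAgggtggt
Nipal1, miR-19, 7mer-m8 at 47: aaggtctaTTTGCACgttagcat
Nipal1, miR-18, 7mer-A1 at 1082: gcccattttCACCTTAataagga
Dock5, miR-19, 7mer-m8 at 16: accctgacTTTGCACctccgagt
Dock5, miR-92, 8mer at 772: agagtacaGTGCAATAtgattat
Dock5, miR-19, 7mer-m8 at 1569: ccataagaTTTGCACttgaaaat
Dock5, miR-92, 7mer-m8 at 1648: gttgtgggGTGCAATtaaggttt
Dock5, miR-19, 7mer-m8 at 1800: gggcaccaTTTGCACggaagggt
Among 13203 genes tested at both stages with an annotated 3′ UTR, 13.4% held an 8mer or 7mer-m8 match to miR-19, 9.41% to miR-18, 7.78% to miR-92 and 14.4% to miR-17, and 33.8% held one to any of the 4 families. The median 3′ UTR in that set was 1198 bases, shorter than those of Npbwr1, Nipal1 and Dock5. Genes with a match were thus common, and 3 of the 4 genes carried at least 1.

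Total counts were between 17150620 and 34077443 per library at E11.5 and between 11877379 and 44155275 at E12.5. Levels are CPM, that is counts scaled to the library size after TMM scaling, and are summarised as mean ± SD over the 3 libraries of a group. The SD includes counting error as well as the spread between libraries. Replicates of each group differed by at least 7.18 times the variance expected from counting alone, so no library appeared to be deposited more than once. The labels do not say how the replicates were split over litters or days, so the spread may be partly technical. XX and XY labels matched Xist and Ddx3y in 24 of 24 libraries. Mir17hg, the host transcript of the cluster, had 98.4 to 154 CPM in KO and 17.6 to 44.6 CPM in control libraries at E11.5, and 66.7 to 83.8 against 13.4 to 37.3 CPM at E12.5. Its gene-level count includes transcript outside the deleted hairpins, so it does not check the deletion, although it separated the genotypes in every library.

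Within the 13784 genes tested at both stages, 9 (0.0653%) were lower in KO at an FDR under 0.05 in all 4 comparisons of KO with control, and the 4 genes were among them. Since these comparisons chose the genes, the values are a description, as is the separation of KO from control libraries given for each gene below. The share of all genes with such separation was not computed, so nothing is read from it. The largest FDR of the 4 comparisons was 0.00437 for Akr1cl, 0.0337 for Dock5, 0.0369 for Nipal1 and 0.0439 for Npbwr1. The remaining 5 of the 9 were Nup62cl, Slc45a3, Klk1, Etv4 and Siglecf, named here after their values were seen, with mean log2 fold changes between -2.96 for Klk1 and -0.98 for Etv4. Just outside the threshold were Rbm47, Tdrd5 and Igdcc3, each called in 3 of the 4 comparisons, with a largest FDR of 0.0578, 0.0588 and 0.0665. The count of 9 rested on few libraries. At E11.5 it fell to 5 when XX control replicate 2, XX control replicate 3 or XX KO replicate 3 was left out. At E12.5 it fell to 1 when XX control replicate 1 was left out, to 2 for XX control replicate 2, to 5 for XX KO replicate 1 and to 2 for XX KO replicate 3. Akr1cl was in the set under each of the 24 omissions, whereas Dock5 was lost in 9, Npbwr1 in 9 and Nipal1 in 6. Npbwr1 was also lost with library size as the only scaling and without the filter on low counts. When libraries were scaled to gonadal somatic markers, or replicate number was fitted as a block, only Akr1cl of the 4 genes remained.

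Akr1cl had the highest level per length of the 4 genes and its libraries separated by genotype at each stage. At E11.5 its level was 70.9, 71.6 and 74.0 CPM in XX control libraries and 25.4, 33.5 and 26.3 CPM in XX KO libraries. In XY gonads it was 66.4, 72.1 and 90.3 CPM in controls and 23.9, 19.1 and 19.8 CPM in KO. No KO library reached a control library, and the smallest gap between genotypes of the same sex was 2.12-fold, between XX KO replicate 2 and the lowest XX control. The log2 fold change of KO against control was -1.34 ± 0.13 (SE) in XX, a level 60.6% lower, and -1.86 ± 0.14 in XY, 72.4% lower. Only 0.549% of the genes tested in XX and 0.612% in XY had a more negative log2 fold change.

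At E12.5 Akr1cl stood at 127, 135 and 116 CPM in XX controls and at 66.6, 56.0 and 66.7 CPM in XX KO libraries. XY controls had 214, 264 and 254 CPM, the highest values of this gene, and XY KO libraries had 95.2, 82.1 and 68.6 CPM. All control libraries again lay above all KO libraries of either sex. The log2 fold changes were -1.001 ± 0.14 in XX and -1.57 ± 0.14 in XY, that is 50.0% and 66.4% lower. The XY change minus the XX change was -0.52 ± 0.19 at the first stage and -0.57 ± 0.19 at the second on the log2 scale. Both fold changes in this difference chose the gene, so it was not tested.

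Nipal1, the magnesium transporter family member, had the largest decrease of the 4 genes in XY gonads at both stages and was expressed at a low level. At E11.5 its level was 6.43, 5.30 and 6.36 CPM in XX controls and 2.66, 2.95 and 3.33 CPM in XX KO. XY controls had 10.2, 10.8 and 15.6 CPM and XY KO libraries had 3.15, 3.32 and 2.91 CPM. KO libraries of both sexes fell within a narrow range, from 2.66 to 3.33 CPM, while XY controls lay above XX controls. The log2 fold changes were -1.01 ± 0.20 in XX and -1.96 ± 0.20 in XY, which correspond to levels 2.02-fold and 3.89-fold lower in KO.

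At E12.5 the counts of Nipal1 in XX gonads were small, 58 to 151 reads in controls and 56 to 110 in KO. The level was 7.78, 3.63 and 3.62 CPM in XX controls and 1.84, 2.49 and 2.65 CPM in XX KO. XX control replicate 1 stood apart from the other controls, but the lowest control was still 1.37-fold above the highest KO library. The log2 fold change in XX was -1.11 ± 0.28, and -0.64 ± 0.23 without XX control replicate 1. In XY gonads the level was 20.1, 26.5 and 24.1 CPM in controls and 5.08, 5.53 and 6.38 CPM in KO, a log2 fold change of -2.05 ± 0.27 with a smallest gap of 3.16-fold. For Nipal1 the difference between the XY and the XX change reached -0.95 ± 0.28 in the E11.5 fit and -0.94 ± 0.38 in the E12.5 fit on the log2 scale, the latter -1.41 ± 0.30 without XX control replicate 1.

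Npbwr1, the neuropeptide receptor, was counted with few reads, 27 to 182 per library at E11.5 and 35 to 135 at E12.5. At E11.5 it had 6.49, 5.04 and 4.26 CPM in XX controls and 2.12, 1.84 and 1.25 CPM in XX KO. XY controls had 8.36, 5.36 and 5.27 CPM and XY KO libraries had 1.97, 2.04 and 2.25 CPM. The log2 fold changes of KO against control were nearly equal, -1.59 ± 0.26 in XX and -1.60 ± 0.26 in XY, and no libraries overlapped. At this stage the level in KO was 3.01-fold lower in XX and 3.03-fold lower in XY.

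The decrease of Npbwr1 was smaller at E12.5. XX controls had 3.61, 3.18 and 3.25 CPM against 2.00, 1.79 and 1.27 CPM in XX KO, a log2 fold change of -0.98 ± 0.25. XY controls had 5.87, 4.38 and 3.73 CPM against 2.92, 2.77 and 2.76 CPM in XY KO, a log2 fold change of -0.74 ± 0.24. Libraries of KO and control did not overlap in either sex, with smallest gaps of 1.59-fold in XX and 1.28-fold in XY. In XY at E12.5, 8.11% of the genes tested had a more negative log2 fold change, the highest share for any of the 4 genes.

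Dock5, the RAC exchange factor, had the smallest decreases of the 4 genes at E11.5. Its level there was 20.4, 22.3 and 24.6 CPM in XX controls and 16.5, 12.4 and 15.5 CPM in XX KO. XY controls had 17.3, 20.7 and 15.7 CPM and XY KO libraries had 12.4, 11.7 and 10.4 CPM. The groups compared did not overlap, but the highest XX KO library lay above the lowest XY control. The log2 fold changes were -0.60 ± 0.14 in XX and -0.64 ± 0.15 in XY, that is 34.2% and 35.6% lower.

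At E12.5 Dock5 had 23.6, 27.0 and 16.2 CPM in XX controls and 11.53, 15.5 and 10.5 CPM in XX KO. The lowest control, XX control replicate 3, exceeded the highest KO library by only 1.04-fold. XY controls had 30.7, 27.0 and 32.8 CPM and XY KO libraries had 13.3, 16.3 and 14.2 CPM, well apart. The log2 fold changes were -0.83 ± 0.20 in XX and -1.04 ± 0.20 in XY. For Dock5 and Npbwr1 the difference between the XY and the XX change was smaller than its SE at both stages, from -0.21 ± 0.28 for Dock5 to 0.24 ± 0.34 for Npbwr1, both at E12.5.

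**Figure D1:**
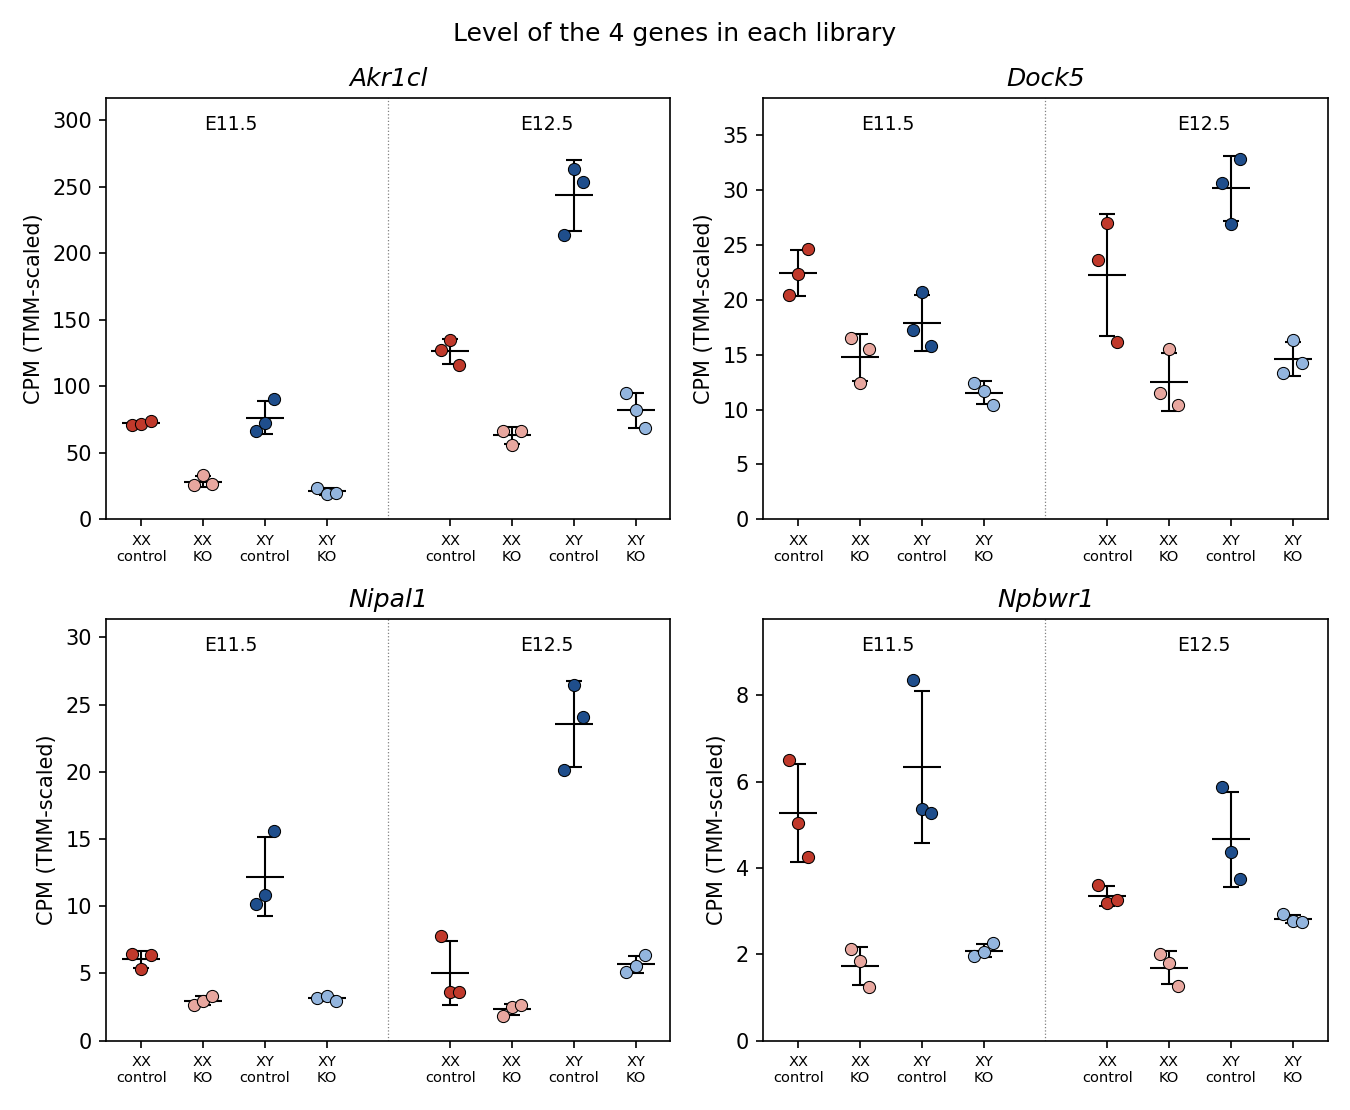
Level of each gene (TMM-scaled CPM, linear axes from 0) in the 24 libraries, with E11.5 on the left and E12.5 on the right of each panel; points are libraries, bars are the mean and SD of 3. In every panel the KO libraries of a sex lie below the control libraries of that sex and stage, in comparisons that chose the genes. XY controls at E12.5 reach 264 CPM for Akr1cl and 26.5 CPM for Nipal1.

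For the background of these choices, 1.42% of all genes tested were called lower in KO in XX and 6.77% in XY at E11.5, and 1.85% in XX and 10.3% in XY at E12.5. The 4 genes were called in each of these comparisons by the way they were chosen, so nothing is read from that count. Across the 4 genes the log2 fold change ranged from -1.59 to -0.60 in XX at E11.5, from -1.96 to -0.64 in XY at E11.5, from -1.11 to -0.83 in XX at E12.5 and from -2.05 to -0.74 in XY at E12.5. The order of the genes was not the same in all 4 comparisons. By estimate, XY at E11.5 and XX at E12.5 shared the order Nipal1, Akr1cl, Npbwr1 and Dock5. Npbwr1 had the largest XX decrease at E11.5, -1.59 ± 0.26 beside -1.34 ± 0.13 for Akr1cl. Nipal1 had the largest in XY at each stage, but at E11.5 its -1.96 ± 0.20 was close to the -1.86 ± 0.14 of Akr1cl. In XX at E12.5 the values of Nipal1, Akr1cl and Npbwr1 lay within their SE of each other, and without XX control replicate 1 that of Nipal1, at -0.64, was the smallest of the 4.

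Per kilobase of annotated exon, the order of the levels in XX controls at E11.5 was Akr1cl, Dock5, Npbwr1 and Nipal1, at 17.1 ± 0.38, 1.85 ± 0.17, 1.43 ± 0.31 and 1.37 ± 0.14 CPM per kb. The levels of Npbwr1 and Nipal1 differed by less than their SD. In XY controls at E12.5 the order was Akr1cl at 57.9 ± 6.3, Nipal1 at 5.36 ± 0.73, Dock5 at 2.48 ± 0.24 and Npbwr1 at 1.26 ± 0.30 CPM per kb. Akr1cl was first in all 8 groups.

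**Figure D2:**
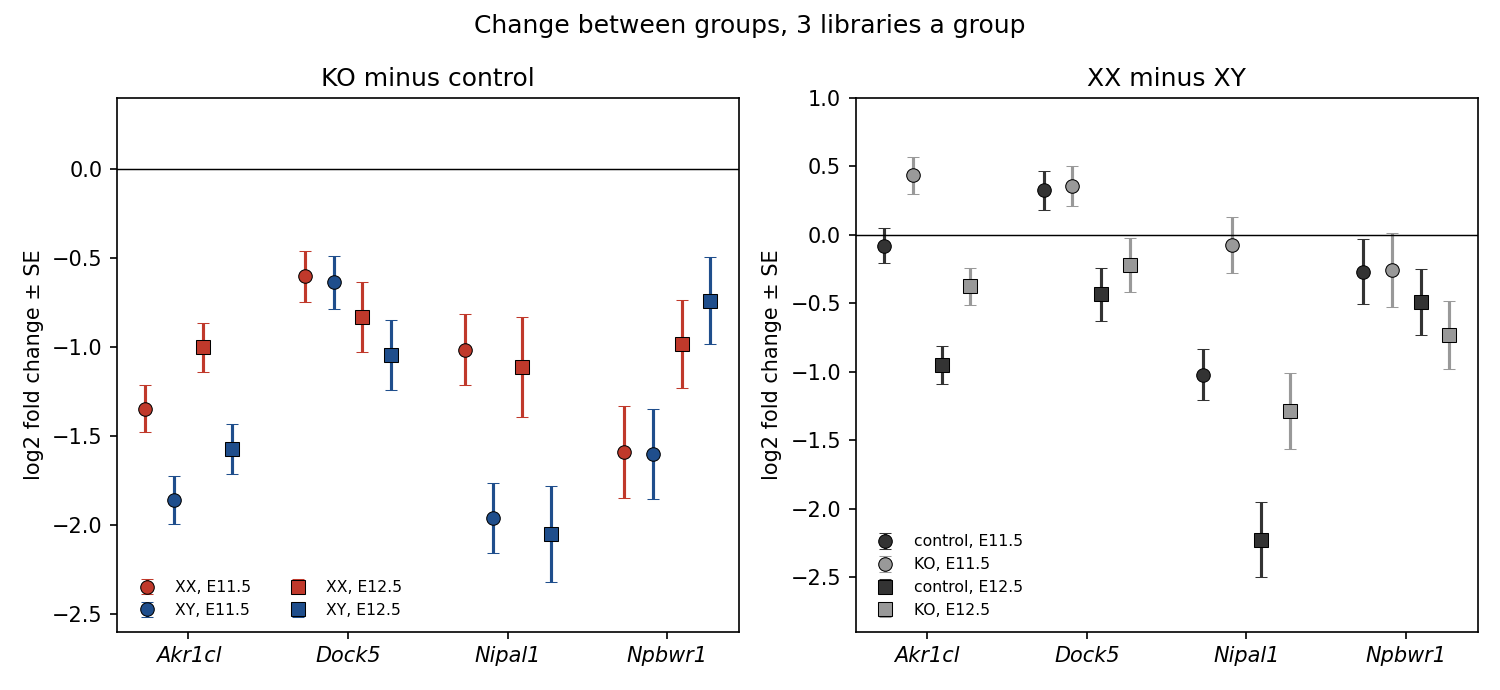
Log2 fold change ± SE from the edgeR fit of each stage for KO minus control (left) and XX minus XY (right), with 3 libraries per group; circles are E11.5 and squares E12.5. All 16 values on the left are below 0 because these comparisons chose the genes, and on the right Nipal1 in controls at E12.5 is lowest, at -2.23.

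Differences between XX and XY gonads had no part in the choice, although the same libraries entered it, and they were tested with edgeR's quasi-likelihood test and Benjamini-Hochberg adjustment over all genes, 16 tests in all. Separation of XX from XY libraries, and the gap between them, is given here and below as a description. The share of all genes with such separation was not computed, so nothing is read from it. At E11.5, 0.872% of all genes were called between XX and XY controls, and 1 of the 4 genes was. Nipal1 was lower in XX than in XY controls, 6.03 ± 0.63 against 12.2 ± 3.0 CPM, with a log2 fold change of -1.02 ± 0.19 (FDR = 0.013) and no overlap of libraries. This call was lost without any of the 3 XX controls or without XY control replicate 3, with FDRs from 0.0511 to 0.124. Akr1cl had a log2 fold change of -0.08 ± 0.13 between XX and XY controls (95% interval -0.35 to 0.19, FDR = 0.766). The values were -0.27 ± 0.24 for Npbwr1 (-0.78 to 0.24, FDR = 0.571) and 0.33 ± 0.14 for Dock5 (0.020 to 0.63, FDR = 0.258).

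XX and XY controls differed at E12.5 for 23.8% of all genes, and for 2 of the 4 genes. Nipal1 was 4.68-fold lower in XX controls, at 5.01 ± 2.40 against 23.6 ± 3.2 CPM (log2 fold change -2.23 ± 0.27, FDR = 2.74e-05). Akr1cl was 1.93-fold lower in XX controls, at 126 ± 9.3 against 244 ± 27 CPM (log2 fold change -0.95 ± 0.14, FDR = 0.000129). Libraries of XX and XY controls did not overlap for either gene, and each call was kept with every library omitted in turn. Dock5 (-0.43 ± 0.19, FDR = 0.132) and Npbwr1 (-0.49 ± 0.24, FDR = 0.174) did not pass the threshold, and the 95% intervals of their log2 fold changes were -0.85 to -0.016 and -1.01 to 0.029.

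Between XX KO and XY KO gonads few genes differed, 0.0844% of those tested at E11.5 and 0.153% of those tested at E12.5. The quasi-likelihood test of edgeR called 0 of the 4 genes at either stage. At an unadjusted p under 0.05 there were 2 at E11.5 and 3 at E12.5, and DESeq2 called 0 and 1. Akr1cl at E11.5 was slightly higher in XX KO, 28.4 ± 4.4 against 20.95 ± 2.6 CPM, with libraries 1.06-fold apart (log2 fold change 0.44 ± 0.13, FDR = 0.169). At E12.5 it was lower in XX KO, 63.1 ± 6.1 against 82.0 ± 13.3 CPM (-0.38 ± 0.14, 95% interval -0.67 to -0.081, FDR = 0.235). Npbwr1 at E12.5 was at 1.69 ± 0.38 CPM in XX KO and 2.81 ± 0.09 in XY KO, without overlap (-0.73 ± 0.25, FDR = 0.235). Dock5 had log2 fold changes of 0.36 ± 0.15 at E11.5 (95% interval 0.045 to 0.67, FDR = 0.253) and -0.22 ± 0.20 at E12.5 (-0.64 to 0.20, FDR = 0.519). Npbwr1 at E11.5 had -0.26 ± 0.27 (-0.83 to 0.32, FDR = 0.666).

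Nipal1 at E12.5 was at 2.33 ± 0.43 CPM in XX KO and 5.67 ± 0.66 CPM in XY KO, with a smallest gap of 1.92-fold and a log2 fold change of -1.29 ± 0.28. The edgeR FDR was 0.165, and it was 0.00273 with DESeq2. Leaving out XX control replicate 1 gave 0.0161 and leaving out XX KO replicate 2 gave 0.0242. At E11.5 its levels in KO were 2.98 ± 0.33 CPM in XX and 3.13 ± 0.20 CPM in XY (log2 fold change -0.07 ± 0.21, 95% interval -0.51 to 0.36, FDR = 0.886). In the order of levels of Nipal1 at E12.5, XY controls came first, XY KO and XX controls next with overlapping libraries, and XX KO last.

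The genes nearest to each of the 4 in pattern were found by the root mean square (RMS) difference of log2 CPM over the 24 libraries, after each gene was centred on its mean at each stage. For Akr1cl they were Gas7, Rhox8 and Aldh3b1, with RMS differences of 0.31, 0.32 and 0.32 against a median of 0.82 over all genes. For Dock5 they were Dsp, which encodes a desmosome protein, Elmo1 and Tor3a, at 0.20, 0.21 and 0.21 (median 0.52). Elmo1 encodes an ELMO scaffold, and its log2 fold changes in KO were -0.26 in XX and -0.55 in XY at E11.5, and -0.56 and -0.84 at E12.5. For Nipal1 they were the potassium channel gene Kcnh1, the cyclic nucleotide-gated channel gene Cnga1 and Stc2, at 0.34, 0.39 and 0.41 (median 1.01). For Npbwr1 they were Abhd15, 6030498E09Rik and Nup62cl, at 0.34, 0.35 and 0.35 (median 0.65). None of the 4 genes was among the 3 nearest of another. The closest pair was Akr1cl and Npbwr1, at an RMS difference of 0.42, with 17 genes nearer to Akr1cl, and the farthest was Dock5 and Nipal1, at 0.73.

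Cnga1 is also the nearest tested neighbour of Nipal1, 3.52 kb away. The next gene on that side, Zar1, which acts in oocytes and early embryos, lies 66.54 kb away. Cnga1 was called lower in KO in 3 of the 4 comparisons, with log2 fold changes of -1.56 ± 0.29 in XX (FDR = 0.00837) and -3.72 ± 0.29 in XY (FDR = 3.98e-06) at E11.5 and -3.03 ± 0.28 in XY at E12.5 (FDR = 2.74e-06). In XX at E12.5 its value was -0.99 ± 0.30 (FDR = 0.0685). As for Nipal1, it was lower in XX than in XY controls at E11.5 (-1.70 ± 0.25, FDR = 0.00191) and at E12.5 (-2.91 ± 0.28, FDR = 2.95e-06). Zar1 was called lower in XY KO at both stages, with -3.09 ± 0.51 at E11.5 (FDR = 0.0016) and -3.89 ± 0.55 at E12.5 (FDR = 0.000129), and in XX KO it had -1.71 ± 0.57 (FDR = 0.126) and -0.15 ± 0.61 (FDR = 0.905). Tec and Slain2, on the other side at E11.5, were not called in either sex.

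Neighbours of the other 3 genes were called in KO against control as follows. Of the nearest tested genes of Akr1cl, Fzd5, 274.9 kb away, was called lower in XX KO at E12.5 (-0.67 ± 0.16, FDR = 0.0324). Crygc, 38.77 kb away, was called higher in XY KO at E12.5 (1.82 ± 0.50, FDR = 0.0175). Cdca2, 36.29 kb from Dock5, was called lower in XY KO at E12.5 (-0.46 ± 0.15, FDR = 0.0429). The neurofilament genes Nefm and Nefl, 149.1 and 150.4 kb from Dock5, were called higher there (3.30 ± 0.57, FDR = 0.000701, and 2.28 ± 0.60, FDR = 0.0134). The tested genes nearest to Npbwr1 lie far from it. Tcea1, 1016 kb away, was called higher in XY KO at E11.5 (0.45 ± 0.10, FDR = 0.00956). Oprk1, the kappa opioid receptor gene 307.6 kb from Npbwr1, had 0 to 2 reads in each XY control at E12.5 and 1.70 ± 0.58 CPM in XY KO, at least 6.71-fold higher with 3 reads per library as the floor. Among E12.5 controls, Oprk1 was higher in XX than in XY, at 5.22 ± 1.83 CPM and at least 20.7-fold above the same floor. Nefm (2.91 ± 0.56, FDR = 0.00149) and Pcmtd1, 1172 kb from Npbwr1 (0.57 ± 0.19, FDR = 0.0437), were also called higher in XX controls at that stage.

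Promoter sequence was at hand for Akr1cl and Nipal1 but not for Dock5 or Npbwr1. It is shown for that reason, from RefSeq (GRCm38.p6), 5′ to 3′ on the strand of the gene. The 250 bases before the RefSeq start are chr1:65032760-65033009 (minus strand) for Akr1cl and chr5:72647546-72647795 (plus strand) for Nipal1. The last base of the Nipal1 window is the first base of the gene in the GENCODE annotation. Capitals mark matches on either strand to the motifs named below them.
Akr1cl: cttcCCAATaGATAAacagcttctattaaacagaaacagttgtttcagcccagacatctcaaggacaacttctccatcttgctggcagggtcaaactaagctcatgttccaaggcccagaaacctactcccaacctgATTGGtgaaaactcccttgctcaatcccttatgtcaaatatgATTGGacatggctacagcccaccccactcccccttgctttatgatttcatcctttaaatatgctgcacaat
Nipal1: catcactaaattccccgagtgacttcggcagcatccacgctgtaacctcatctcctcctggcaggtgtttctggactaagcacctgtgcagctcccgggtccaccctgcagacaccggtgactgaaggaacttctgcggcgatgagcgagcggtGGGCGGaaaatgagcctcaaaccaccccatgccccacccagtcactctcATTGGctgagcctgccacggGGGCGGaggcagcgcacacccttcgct
On either strand, Akr1cl held GATAA, the core of sites for GATA factors, 240 bases before the start and the CCAAT box at 246, 113 and 71 bases. Nipal1 held the CCAAT box at 47 bases and GGGCGG, the GC box, at 96 and 27 bases. Neither window held AGGTCA (nuclear receptor half-site), AACAAT (SOX) or CACGTG (E-box). Over 32851 promoters of the same length, 22.6% held GATAA, 33.8% the CCAAT box, 32.7% the GC box, 14.02% the nuclear receptor half-site, 9.42% the SOX motif and 6.02% the E-box.

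Genes of the families and pathways of the 4 genes were tested in the same fit and, for these lists, 3.35% of all genes tested were called in either direction in XX KO against XX control at E11.5, 12.6% in XY at E11.5, 5.26% in XX at E12.5 and 20.6% in XY at E12.5. Of 17 other aldo-keto reductases listed, 9 were tested at E11.5 and 10 at E12.5. At E11.5 edgeR called 0 in XX KO (1 at an unadjusted p under 0.05, 0 with DESeq2) and 1 higher in XY KO, and at E12.5 it called 1 higher in XX KO. In XY KO at E12.5, 3 were lower and 2 higher. Akr1b8 was lower there, at 42.8 ± 0.49 against 92.5 ± 14.9 CPM (log2 fold change -1.11 ± 0.26, FDR = 0.00701). Akr1c14, which encodes a 3-alpha-hydroxysteroid dehydrogenase, was higher, at 25.5 ± 2.8 against 8.18 ± 1.43 CPM (1.65 ± 0.23, FDR = 0.000129). The median log2 fold change of the list was -0.03 in XX and 0.03 in XY at E11.5, and 0.18 and 0.02 at E12.5, beside medians of all genes between -0.02 and 0.01.

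In the DOCK family, 10 genes beside Dock5 were tested at each stage. In KO against control, 1 was called lower in XX and 3 in XY at E11.5, and at E12.5 1 was lower in XX, and 1 lower and 3 higher in XY. Dock10, which activates CDC42 and RAC, was lower in KO at E11.5 in XX (19.9 ± 4.0 against 35.2 ± 1.8 CPM, log2 fold change -0.82 ± 0.16, FDR = 0.0108) and in XY (-1.07 ± 0.16, FDR = 0.000748), and in XY at E12.5 (-1.03 ± 0.19, FDR = 0.00143). Dock4 rose in XY KO at E12.5, from 62.9 ± 3.6 to 249.3 ± 33.98 CPM (1.99 ± 0.20, FDR = 5.47e-06). The median log2 fold change was -0.10 in XX and -0.19 in XY at E11.5, and -0.30 and 0.09 at E12.5.

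Of 11 partners of DOCK proteins (ELMO scaffolds, RAC and related GTPases and CRK adaptors), 1 was called lower in XX KO at E11.5, 5 lower and 1 higher in XY KO at E11.5, 1 higher in XX KO at E12.5 and 2 lower in XY KO at E12.5. Rac2, the RAC gene of blood cells, was lower at E11.5 in XX (4.27 ± 1.02 against 8.45 ± 0.11 CPM, log2 fold change -0.98 ± 0.21, FDR = 0.0204) and XY (-0.87 ± 0.21, FDR = 0.0162). Elmo1 was lower in XY KO at E11.5 (-0.55 ± 0.16, FDR = 0.0376) and E12.5 (-0.84 ± 0.18, FDR = 0.00359). The median log2 fold change was -0.05 in XX and -0.25 in XY at E11.5, and -0.04 in each sex at E12.5.

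Of 18 genes tested for the NIPA family and magnesium transport, 1 was called lower in XX KO and 2 higher in XY KO at E11.5, while for XX KO at E12.5 edgeR called 0 (2 at an unadjusted p under 0.05, 1 with DESeq2) and for XY KO 2 higher and 1 lower. Nipal4 was the gene lower in XX KO, at 0.72 ± 0.11 against 1.502 ± 0.12 CPM (log2 fold change -1.06 ± 0.28, FDR = 0.0499), and DESeq2 called 0 of the 18 in that comparison. The magnesium transporter gene Slc41a2 rose in XY KO at E12.5, from 3.33 ± 0.52 to 13.7 ± 2.3 CPM (2.04 ± 0.19, FDR = 2.83e-06), in the direction opposite to Nipal1. The median log2 fold change was 0.03 in XX and 0.00 in XY at E11.5, and -0.18 and 0.11 at E12.5.

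Of the ligands of Npbwr1 and its related receptors, 5 were tested at E11.5 and 6 at E12.5. Npb, the gene of neuropeptide B, was called lower in XY KO at E11.5, at 0.39 ± 0.26 against 1.10 ± 0.08 CPM (log2 fold change -1.48 ± 0.42, FDR = 0.0305). In XX KO edgeR called 0 at either stage (1 at an unadjusted p under 0.05 at each, 0 with DESeq2). At E12.5 in XY KO, 2 were higher and 1 lower. Oprd1, the delta opioid receptor gene, rose from 1.81 ± 0.24 to 9.63 ± 1.68 CPM (2.40 ± 0.22, FDR = 2.39e-06), and Sstr4, a somatostatin receptor gene, fell from 7.18 ± 3.40 to 1.89 ± 0.62 CPM (-1.97 ± 0.41, FDR = 0.00313). The median log2 fold change was 0.12 in XX and -0.15 in XY at E11.5, and -0.23 and 0.66 at E12.5.

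**Figure D3:**
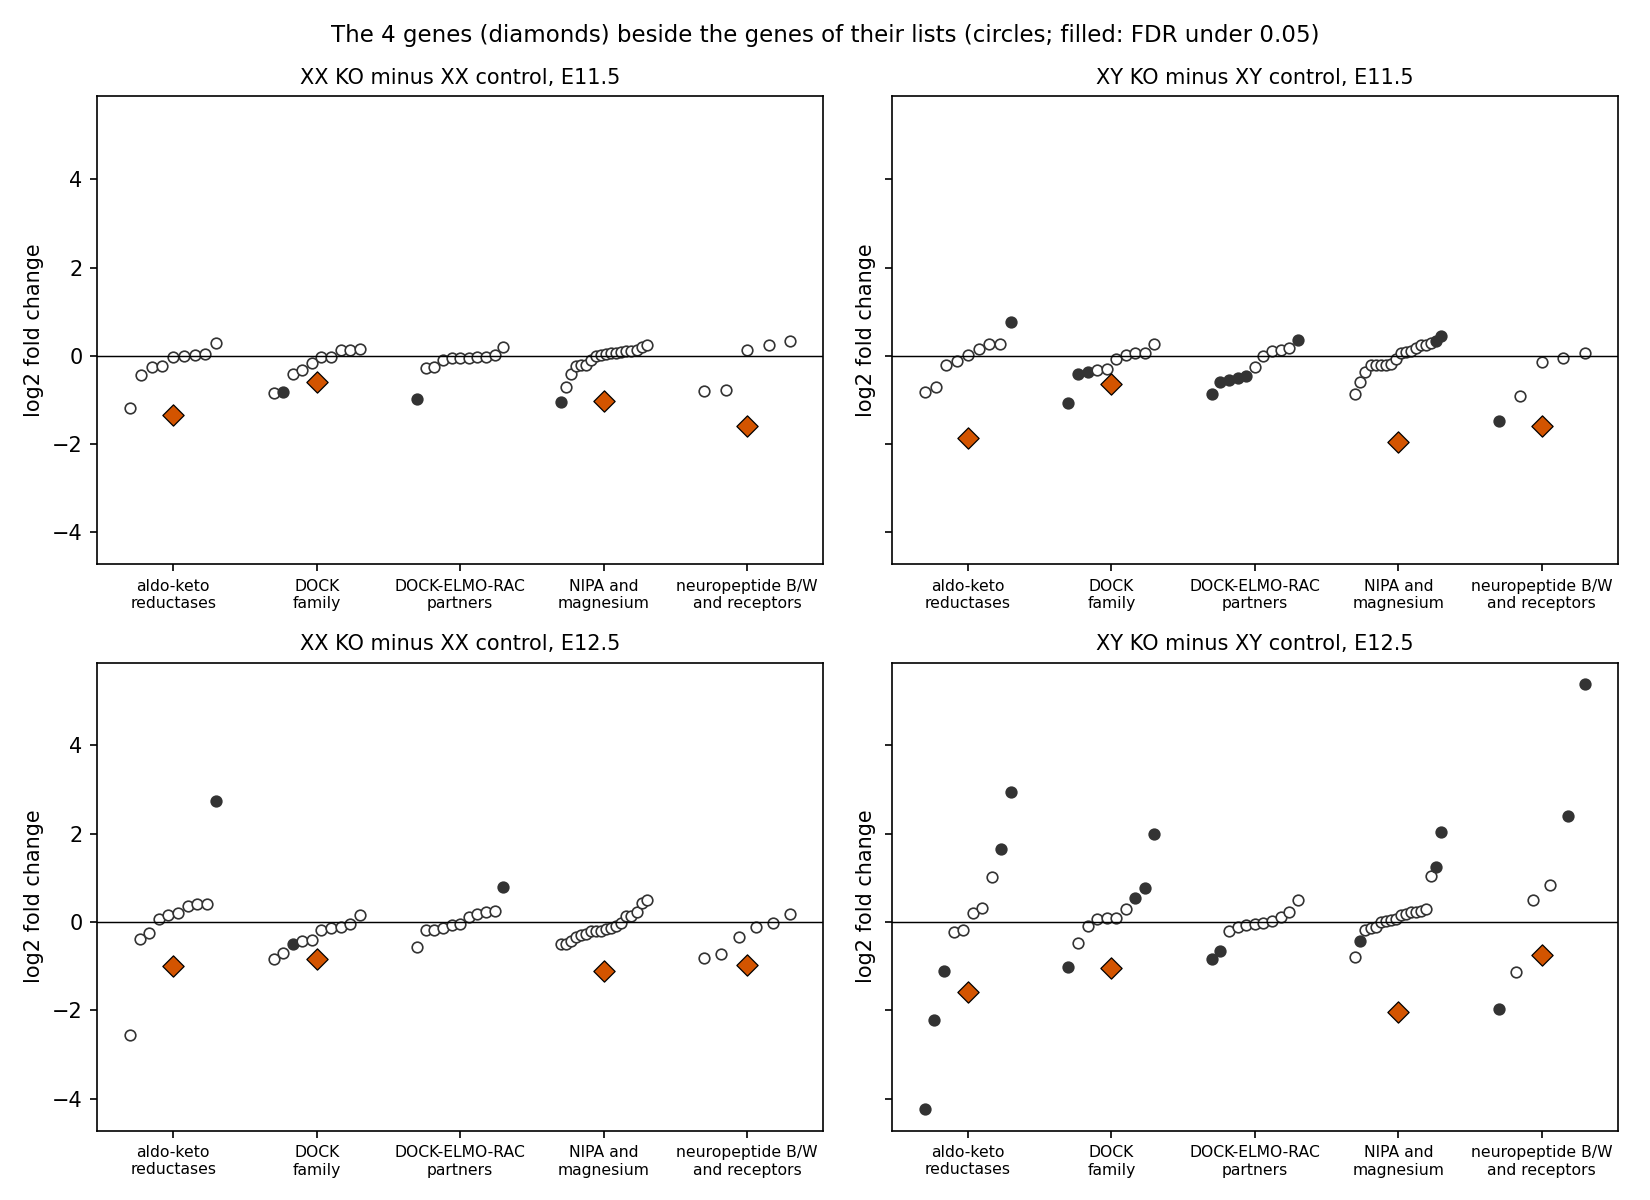
Log2 fold change of KO against control for the genes of the 5 lists (circles, sorted within a list; filled at an FDR under 0.05) and for Akr1cl, Dock5, Nipal1 and Npbwr1 (diamonds), in each of the 4 comparisons. The diamonds lie below 0 in every panel by the choice of the genes, whereas circles lie on either side of 0; Oprk1 and Akr1d1 at E12.5, with 3 reads or fewer in each library of a group, are drawn at fitted values.

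Between XX and XY controls, edgeR called 0 of 53 tested genes of the 5 lists at E11.5 (9 at an unadjusted p under 0.05, 0 with DESeq2), beside 0.872% of all genes, and 22 of 55 at E12.5, beside 23.8%. The calls at E12.5 were 2 higher and 3 lower in XX among aldo-keto reductases, 2 and 1 in the DOCK family, 1 and 1 among DOCK partners, 5 and 2 in magnesium transport and 4 and 1 among the receptors related to Npbwr1. Nipal2, a relative of Nipal1, was lower in XX controls as Nipal1 was, at 2.098 ± 0.66 against 4.33 ± 0.54 CPM (log2 fold change -1.05 ± 0.27, FDR = 0.0113). The change in XY KO differed from that in XX KO, by the interaction term at E12.5, for 12 of 55 genes of the lists (21.8%), beside 12.9% of all genes. Between XX KO and XY KO gonads, edgeR called 0 genes of the lists at both stages (9 and 13 at an unadjusted p under 0.05), and DESeq2 called 1 at E11.5 and 0 at E12.5.

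In bulk tissue, fewer cells of a type and less RNA per cell cannot be told apart, and markers of several cell types differed between KO and control. Gonadal somatic markers such as Nr5a1, Gata4 and Wt1 had summed levels of 1213 to 1350 CPM in XX controls at E11.5. XX KO had 1290 to 1490, with 1 of 7 called higher. At that stage the sums were 1252 to 1335 in XY controls and 1129 to 1274 in XY KO, with 1 higher and 3 lower. Within these XY sums, Nr5a1 had 124 ± 16 CPM in controls and 53.6 ± 10.4 in KO, and Gata4 171 ± 23 and 103 ± 18. Wt1, the largest part of the sum, had 528 ± 20 and 493 ± 36. Tcf21 rose from 195 ± 30 to 254 ± 14 CPM. At E12.5 the sums were 1669 to 1870 in XX controls and 1671 to 1966 in XX KO, with 1 of 7 called higher, and 1556 to 1800 in XY controls and 1674 to 1795 in XY KO, with 2 higher and 2 lower. When libraries were scaled to these markers, the 16 log2 fold changes that chose the 4 genes stayed below 0. In XY at E11.5 this scaling moved the median of all genes from -0.02 to 0.16. Dock5 went there from -0.64 to -0.46 and Akr1cl from -1.86 to -1.68.

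Sertoli markers were called lower in XY KO gonads too. Their sum was 180 to 346 CPM in XY controls and 82.3 to 95.0 in XY KO at E11.5 (7 of 8 called lower), and 1718 to 2403 against 52.3 to 87.6 at E12.5 (8 of 8 lower). In XX gonads the sums of controls and KO overlapped at both stages, at 94.6 to 119 CPM in controls and 89.3 to 105 in KO at E11.5, and 32.3 to 42.3 and 37.4 to 46.7 at E12.5. Akr1cl, Nipal1, Npbwr1 and Dock5 were lower in KO of both sexes by the way they were chosen. The part of Sertoli cells in their values was not tested in either sex.

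Other lists moved in some comparisons. Pre-granulosa markers were lower for 3 of 7 genes in XX KO at E11.5 (281 to 333 against 391 to 403 CPM), with 2 lower and 2 higher in XY KO, and higher for 6 of 7 in XY KO at E12.5 (572 to 611 against 106 to 128 CPM). Macrophage markers were lower for 2 of 7 genes at E11.5 in XX KO (71.9 to 99.1 against 123 to 138 CPM) and in XY KO (76.3 to 109 against 106 to 144 CPM), and 1 was higher in XY KO at E12.5. Fetal Leydig markers were lower for 5 of 5 genes in XY KO at E12.5 (31.3 to 40.7 against 822 to 1766 CPM) and for 1 of 3 tested in each sex at E11.5.

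Germ cell markers were lower for 3 of 8 genes in XX KO at E12.5 (350 to 814 against 894 to 1649 CPM) and 1 of 8 in XY KO, and their median log2 fold change was below 0 in all 4 comparisons, from -0.93 to -0.36. Mesonephric markers were higher in KO at E12.5 for 3 of 8 genes in XX (67.4 to 153 against 42.6 to 53.4 CPM) and 6 of 8 in XY (37.6 to 110 against 31.5 to 38.0 CPM, with 1 lower), although the RNA at that stage came from gonads alone. At E11.5 they were called lower for 1 of 8 in XY KO. Interstitial progenitor markers had 1 of 4 genes called higher in each sex at E11.5, 2 higher in XX at E12.5, and 1 higher and 1 lower in XY. Endothelial markers had 2 of 6 genes called higher in XY KO at E12.5. Of the 5 erythroid markers 3 were tested, with summed levels that overlapped between KO and control in each comparison, and Hbb-bt was at 0 in all libraries and Hba-a1 at 3 reads or fewer. The part of these cell types in the values of the 4 genes was not tested.

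**Figure D4:**
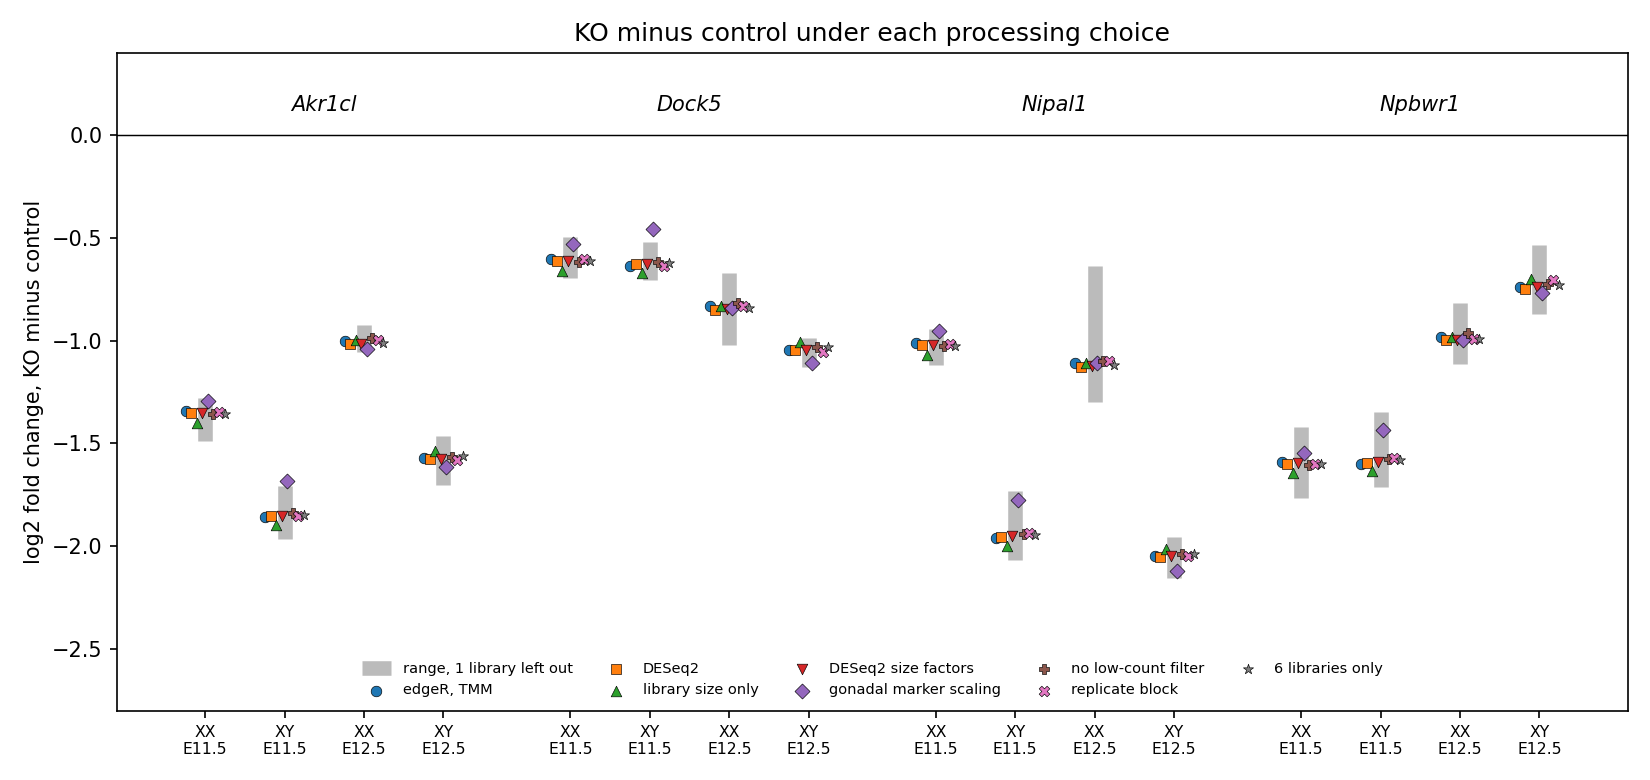
Log2 fold change of KO against control for each gene, sex and stage under 8 ways of processing (symbols) and the range when 1 of the 12 libraries of the stage was left out (grey bars). All values lie below 0, between -2.16 and -0.46, in refits of the libraries that chose the genes. The longest bar, from -1.30 to -0.64, is that of Nipal1 in XX at E12.5.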

How the data were processed

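Bulk RNA-seq was made from mouse gonads at E11.5 (with mesonephros) and E12.5. The authors aligned read pairs to mm10 with Subread and obtained counts per gene with featureCounts. Versions and strand setting are not given in the sources used here. The deposited values are whole-number counts, 1 table per stage. In tables of Foxl2 mutants, 12 columns of per-sample values stayed unused because the column names leave the tissue open.

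Libraries were grouped by genotype, sex and stage from the labels. For each stage 1 edgeR 4.0.16 model with a mean per group was fitted to 12 libraries (TMM, robust quasi-likelihood fit, R 4.3.3 with limma 3.58.1), on genes with at least 1 CPM in at least 2 libraries, and genes with a Benjamini-Hochberg FDR under 0.05 were called. The SE was taken from the log2 fold change and the quasi-likelihood F value, and 95% intervals used the t distribution with the degrees of freedom of the fit. RMS differences used log2(CPM + 0.5). The script was tested on simulated data. Alternatives were DESeq2 1.42.0, other scalings, no filter, 6-library fits, a replicate block and omission of each library.

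The members and the lists were chosen with earlier results of these data known. Besides the 4 genes, the text names by rule the 3 nearest genes in pattern, called list genes (at most 3 each way per comparison), the 2 nearest tested genes on each side, genes at the threshold and Mir17hg. Total counts of 11877379 to 44155275 per library gave 27 or more reads for each of the 4 genes in every library.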

Additional observations from a re-analysis of the deposited data

Results flagged for a closer look

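Of 55 genes of the lists tested at E12.5, 12 (21.8%) differed between the change in XY KO and the change in XX KO by the interaction term of the edgeR fit, with an FDR under 0.05, beside 12.9% of all 14348 genes tested. Of these, 11 are given here. The difference between the changes equals XX minus XY in controls less XX minus XY in KO. It is therefore not separate from the sex difference in controls. No gene of the lists was called by edgeR between XX KO and XY KO. All of the 11 except Dock11 were called between XX and XY controls, with the same sign. There XX minus XY was -1.98 for Akr1b7, 1.99 for Akr1c14, 2.09 for Oprd1, 1.91 for Slc41a2 and -3.46 for Sstr4. Among the aldo-keto reductases, relatives of Akr1cl, the difference (XY change minus XX change, log2) was -1.82 for Akr1b7 (FDR = 0.0222), -1.49 for Akr1b8 (FDR = 0.0155) and 1.89 for Akr1c14 (FDR = 0.001). In the DOCK family it was 2.68 for Dock4 (FDR = 1.55e-05), 1.28 for Dock9 (FDR = 0.000426) and 0.73 for Dock11 (FDR = 0.0397). Dock9 fell in XX KO by 0.51 ± 0.14 on the log2 scale (FDR = 0.0463) and rose in XY KO by 0.77 ± 0.14 (FDR = 0.000933), from 74.3 ± 2.3 to 127 ± 12 CPM. In magnesium transport the difference was 2.24 for Slc41a2 (FDR = 4.31e-05), 1.10 for Slc41a3 (FDR = 0.0499) and -1.22 for Nipal2 (FDR = 0.0492). Among receptors related to Npbwr1 it was 2.42 for Oprd1 (FDR = 6.75e-05) and -2.15 for Sstr4 (FDR = 0.0376). Oprk1, the remaining gene, is given no value because XY controls had 3 reads or fewer in each library.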

How the results depend on the processing

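The 16 log2 fold changes of the 4 genes in KO against control stayed below 0 under all 19 alternatives each. Of 304 values, 302 moved by less than the spread between replicates. The exceptions were Dock5 in XY at E11.5 scaled to gonadal markers (-0.46) and Nipal1 in XX at E12.5 without XX control replicate 1 (-0.64). These changes chose the genes, and every alternative reused the same libraries. Of the 19, 12 left out a single library, which shifts a group mean only in part. Small moves were therefore largely built in and are no support for the decreases. Of the differences between the XY and XX changes, that of Npbwr1 at E11.5 (-0.01) had the other sign under 13 of 18 alternatives and that of Dock5 at E11.5 (-0.03) under 6. For XX against XY, 1 of 304 values reversed: Akr1cl in controls at E11.5, -0.08, ranged from -0.17 to 0.067 over omissions of a library and was above 0 only without XY control replicate 3. The number of the 4 genes called between XX and XY controls at E11.5 ranged from 0 to 1 over omissions. Between XX KO and XY KO at E12.5 it was 0, 1 with DESeq2 and 0 to 1 over omissions. Genes of the lists called in XX KO against XY KO at E11.5 were 0, and 1 with DESeq2, and in XX KO against XX control at E12.5 they were 3, and 6 with DESeq2. The cause of these moves was not tested.

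Genes called lower in all 4 comparisons were 9, 27 with DESeq2, which included all 9, and 1 to 12 over omissions (2 for E12.5 without XX control replicate 2 or XX KO replicate 3); these alternatives were chosen after seeing the data. With the replicate block they were 7, and 6 of the 9 remained, with Akr1cl the only one of the 4 genes. Scaling to gonadal markers gave 8, of which 5 were of the 9, again with Akr1cl alone of the 4. Library size as the only scaling gave 9 and no filter gave 8, each without Npbwr1. The labels do not say that a replicate number is shared between groups, and deviations of same-numbered libraries correlated between -0.24 and 0.39 at E11.5 and between -0.44 and 0.33 at E12.5, so the numbers were not taken as pairs. At 27 to 182 reads per library, Npbwr1 is the gene whose values depth limits most.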
